A study of Mus musculus with 6 samples.

Results

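The genes described here are the immune receptor adaptor gene *Tyrobp* and 9 further myeloid genes, *Fcer1g*, *Fcgr3*, *Fcgr2b*, *Csf1r*, *Cx3cr1*, *Adgre1*, *Cd14*, *Aif1*, and *Itgam*, 10 of the 56923 genes listed in the left ventricles (LVs) of mice. They were chosen by gene name, with the difference between the genotypes already in view. All 10 passed edgeR's filter on low counts, which left 17212 genes. Each of 6 mice, 3 wild-type (WT) and 3 *Lztr1* R409C/+, gave 1 library from its LV, taken after perfusion with PBS at an age of 12 weeks. The study's methods state that male mice were used. The sample labels name the 2 groups wild type and mutant and the tissue heart. The study's results give the allele of the sequenced mice, and its methods give the LV. The R409C/+ mice carry in every cell 1 knock-in copy of *Lztr1*, a substrate adaptor gene of a CUL3 ubiquitin ligase, made with CRISPR/Cas9 and backcrossed to C57BL/6J. The allele is a point mutation, so the counts of *Lztr1* cannot check the labels. In CPM, the counts of a gene scaled to a common library total, *Lztr1* was at 24.2, 24.2, and 22.2 in the WT mice and at 23.9, 27.9, and 25.3 in the R409C/+ mice, both in replicate order. Because the samples are bulk tissue, more cells of a type and more RNA per cell cannot be told apart in any value below.

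Macrophages and monocytes read their surroundings through surface receptors, many of which have no signaling part of their own. Such receptors pair in the membrane with small adaptors that carry an immunoreceptor tyrosine-based activation motif (ITAM), the proteins encoded by *Tyrobp* (DAP12) and *Fcer1g* (the Fc receptor γ chain). SRC family kinases phosphorylate the ITAM, the kinase SYK docks on it, and the signal is opposed by receptors with an inhibitory motif (ITIM), which recruit phosphatases. The heart holds resident macrophages, which depend on the growth factor receptor encoded by *Csf1r*, and monocytes that enter from the blood.

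Total counts lay between 66130887 and 72641124 per mouse, of which the 10 genes took between 5344 and 10350. CPM was computed on TMM-normalized library sizes. A total of 3 counts, taken as the detection floor for counting error alone, is worth 0.0317 to 0.0541 CPM in these mice. The share of counts from mitochondrially encoded genes was lowest in WT replicate 3 (13.8%) and highest in R409C/+ replicate 1 (45.4%). Without these 2 mice, the log2 fold changes of the 10 genes lay between 0.54 for *Csf1r* and 1.83 for *Itgam*, with a median of 1.05. The labelled tissue was checked against its markers. A list of 7 cardiomyocyte genes summed to between 33290 and 37600 CPM in WT and between 22340 and 36960 CPM in R409C/+ mice, and a list of 10 macrophage genes to between 193 and 244.9 CPM and between 310.7 and 443.4 CPM. None of the 10 genes is in either list.

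In every R409C/+ mouse, each of the 10 genes was above its highest WT value, whereas 8.3% of all genes tested had this pattern. The genes were proposed from this contrast, so their values are given as a description, and nothing is read from that count or from the counts of calls in this paragraph. The ratio of the group means ranged from 1.45 for *Csf1r* to 3.2 for *Cx3cr1* and was above 2 for 6 of the 10. One of these 6 is *Itgam*, which is not above 2 when the counts of an overlapping gene are added (4.73 ± 0.71 CPM against 8.06 ± 1.62 CPM, SD, n = 3). At a false discovery rate of 0.05, edgeR's quasi-likelihood test called 0 of the 10, where it called 0.0407% of all genes tested, 0.0349% higher and 0.00581% lower. At an unadjusted p under 0.05 it gave all 10, where 5.77% of the genes tested were higher at that level. On the same genes, DESeq2's Wald test called 6 of the 10 and edgeR's exact test 5, where they called 1% and 0.72% of all genes with an adjusted p higher, or 152 and 124 genes. The median log2 fold change of R409C/+ over WT mice was 1.16 over the 10 genes and 0.012 over all genes tested. Summed over the 10 genes, the level was 80.2 ± 4.78 CPM (SD, n = 3) in WT and 142.9 ± 1.48 CPM (SD, n = 3) in R409C/+ mice.

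**Figure D1:**
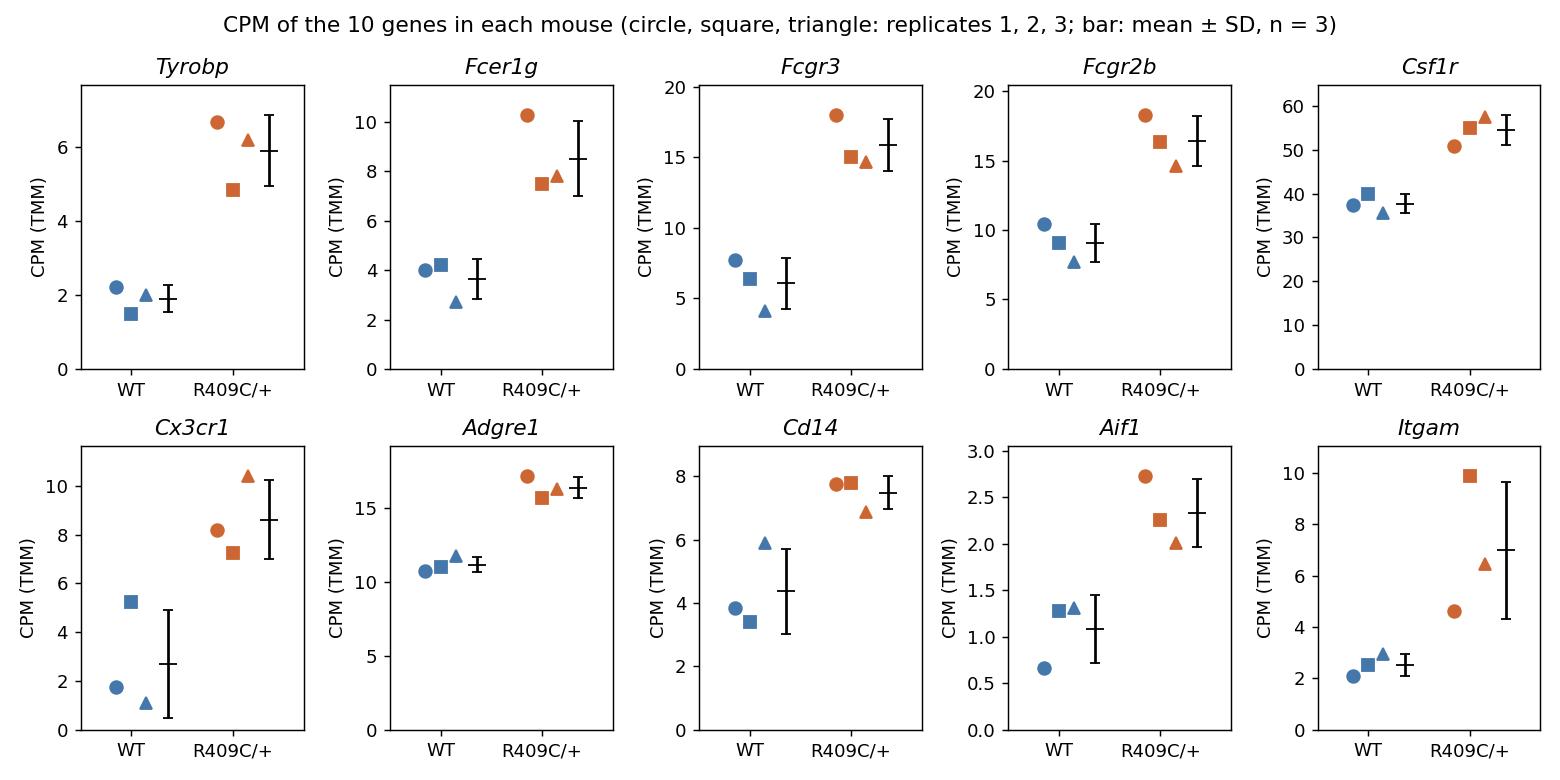
CPM of each of the 10 genes (vertical axes, from 0) in the 3 WT mice (blue) and the 3 R409C/+ mice (orange), with circles, squares, and triangles for replicates 1, 2, and 3 and a bar for the mean ± SD. In each of the 10 panels, every R409C/+ mouse lies above every WT mouse. As a ratio of the lowest R409C/+ to the highest WT mouse, the gap is narrowest for *Cd14* (1.17). The spread within WT mice is widest for *Cx3cr1*.

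*Tyrobp* (ENSMUSG00000030579.11) lies on chromosome 7 of GRCm39 from 30113170 to 30117010, on the plus strand, in 5 exons. Its level was 2.21, 1.49, and 1.995 CPM in the WT mice and 6.7, 4.85, and 6.2 CPM in the R409C/+ mice, here and below in the order of replicates 1, 2, and 3. The lowest R409C/+ mouse was 2.2 times the highest WT mouse, the widest gap among the 10 genes. On average this was 1.9 ± 0.369 CPM (SD, n = 3) in WT and 5.92 ± 0.953 CPM (SD, n = 3) in R409C/+ mice, a log2 fold change of 1.64 (standard error 0.25). These values rest on 96 to 189 counts per WT mouse and 347 to 449 counts per R409C/+ mouse.

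*Fcer1g* (ENSMUSG00000058715.12, chromosome 1, 171057141 to 171062219, minus strand), which encodes the other ITAM adaptor, was measured at 4.03, 4.21, and 2.69 CPM in WT and at 10.3, 7.5, and 7.8 CPM in R409C/+ mice. WT replicate 3 was the lowest and R409C/+ replicate 1 the highest, and the groups did not overlap. *Fcer1g* had a log2 fold change of 1.23 (standard error 0.24). Within a mouse, the ratio of *Fcer1g* to *Tyrobp* CPM was 1.82, 2.82, and 1.35 in WT and 1.53, 1.54, and 1.26 in R409C/+ mice, so that this ratio overlapped between the genotypes.

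*Fcer1g* and *Itgam* hold the core letters bound by PU.1, the myeloid transcription factor encoded by *Spi1*, in the 250 bases before their start. The windows below are shown as 2 examples with these letters from genes described here, and the other windows are not printed. They were read from GRCm39 before the first base of the Ensembl canonical transcript of GENCODE M39, 5′ to 3′ on the strand of the gene, with capitals for GAGGAA on either strand (TTCCTC where it lies on the opposite strand). They lie at chr1:171062220-171062469 (minus strand) for *Fcer1g* and chr7:127661558-127661807 (plus strand) for *Itgam*.
Fcer1g: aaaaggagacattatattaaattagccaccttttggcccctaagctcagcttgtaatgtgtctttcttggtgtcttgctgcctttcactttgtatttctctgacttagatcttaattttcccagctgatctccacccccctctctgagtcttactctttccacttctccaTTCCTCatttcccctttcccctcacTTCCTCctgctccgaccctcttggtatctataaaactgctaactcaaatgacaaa
Itgam: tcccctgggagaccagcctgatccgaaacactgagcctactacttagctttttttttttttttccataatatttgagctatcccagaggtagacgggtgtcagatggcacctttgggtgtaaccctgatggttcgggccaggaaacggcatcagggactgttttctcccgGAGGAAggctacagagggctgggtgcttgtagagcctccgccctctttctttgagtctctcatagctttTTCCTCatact

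*Fcer1g* and *Itgam* had 2 matches each. In all, 5 of the 10 genes held GAGGAA on either strand, as did 22.9% of the windows of 21757 protein-coding genes. The longer form GAGGAAGT, which contains it, was found in 1 of the 10 windows, that of *Fcer1g*, and in 2.08% of all windows. The C/EBP letters TTGCNNAA were in 1 of the 10 windows (*Fcgr3*) and in 9.34% of all, the RUNX letters TGTGGT in 2 (*Csf1r* and *Cx3cr1*) and in 13% of all, and TATAAA in 1 (*Fcer1g*) and in 11.9% of all. A match describes letters in this window and is not evidence of binding.

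*Fcgr3* and *Fcgr2b* are genes on chromosome 1 for low-affinity receptors of IgG. The first encodes an activating receptor that signals through the γ chain and the second an inhibitory receptor with an ITIM. *Fcgr3* (ENSMUSG00000059498.14, chromosome 1, 170878738 to 170893549) was measured at 7.7, 6.39, and 4.08 CPM in WT and at 17.97, 15.01, and 14.65 CPM in R409C/+ mice. Every R409C/+ mouse was above every WT mouse, and in both groups replicate 3 was the lowest and replicate 1 the highest. *Fcgr3* had a log2 fold change of 1.39 (standard error 0.23). *Fcgr2b* (ENSMUSG00000026656.16, chromosome 1, 170786186 to 170804177) was measured at 10.4, 9.09, and 7.71 CPM in WT and at 18.3, 16.4, and 14.6 CPM in R409C/+ mice. The activating and the inhibitory receptor gene thus ranked the mice of each group alike. The log2 fold change of *Fcgr2b* was 0.85 (standard error 0.18). Within a mouse, the ratio of *Fcgr3* to *Fcgr2b* CPM was 0.738, 0.703, and 0.529 in WT and 0.984, 0.917, and 1.0 in R409C/+ mice. This ratio did not overlap between the genotypes, and averaged 0.656 ± 0.112 in the 3 WT mice against 0.968 ± 0.0455 in the 3 R409C/+ mice (mean ± SD). The ratio of *Fcgr3* to *Fcer1g*, the receptor to its own adaptor, did overlap, and averaged 1.65 ± 0.23 in the 3 WT mice against 1.88 ± 0.126 in the 3 R409C/+ mice (mean ± SD). Of the stretches of 50 bases in the transcripts of *Fcgr3*, 4.81% occur also in *Fcgr2b*, so reads there could be assigned to either gene.

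*Csf1r* (ENSMUSG00000024621.17, chromosome 18, 61229714 to 61266535), the receptor gene for the growth factors encoded by *Csf1* and *Il34*, had the highest counts of the 10 genes. Its level was 37.4, 40.0, and 35.7 CPM in WT and 50.9, 55.0, and 57.6 CPM in R409C/+ mice. The spread within each group was small beside the gap between them, with coefficients of variation of 5.75% in WT and 6.16% in R409C/+ mice. The log2 fold change was 0.53 (standard error 0.14), the smallest of the 10. *Csf1r* made between 46.3% and 47.5% of the summed CPM of the 10 genes in WT and between 35.2% and 40.3% in R409C/+ mice. Its exons share 1461 bases with those of *Hmgxb3* on the opposite strand, and the library kit named in the labels is not described as stranded. *Hmgxb3* was measured at 17.3, 19.3, and 16.1 CPM in WT and at 12.2, 13.5, and 15.9 CPM in R409C/+ mice.

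*Cx3cr1* (ENSMUSG00000052336.8, chromosome 9, 119877749 to 119898945), the gene for the receptor of the chemokine CX3CL1, was measured at 1.74, 5.24, and 1.11 CPM in WT and at 8.18, 7.26, and 10.4 CPM in R409C/+ mice. The WT mice were split, with replicate 2 near the R409C/+ mice and the other two far below. The coefficient of variation was 82.5% in WT and 18.8% in R409C/+ mice, where counting alone gives 7.34% and 4.17%. The log2 fold change was 1.69 (standard error 0.49), and it was 2.6 without WT replicate 2 and 1.3 without WT replicate 3. *Cx3cr1* had the largest standard error of the 10 genes, and its fold change was below that of *Tyrobp* without WT replicate 1 (1.45 against 1.76), without WT replicate 3 (1.3 against 1.67), without R409C/+ replicate 3 (1.53 against 1.6), and without the mice of lowest and highest mitochondrial share (1.34 against 1.58).

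*Adgre1* (ENSMUSG00000004730.16, chromosome 17, 57665573 to 57790527) encodes F4/80, an adhesion-type receptor used as a surface marker of mouse macrophages. Its level was 10.7, 11.0, and 11.7 CPM in WT and 17.1, 15.7, and 16.3 CPM in R409C/+ mice. Like *Csf1r*, it was even within each group, with a coefficient of variation of 4.5% in WT and 4.49% in R409C/+ mice. *Adgre1* had a log2 fold change of 0.55 (standard error 0.16). The ratio of *Adgre1* to *Csf1r* CPM averaged 0.297 ± 0.0281 in the 3 WT mice and 0.301 ± 0.0304 in the 3 R409C/+ mice (mean ± SD), a difference within the spread between mice. The ratio of *Tyrobp* to *Adgre1* was 0.206, 0.136, and 0.17 in WT and 0.391, 0.31, and 0.381 in R409C/+ mice, a gap with no overlap between the genotypes. *Tyrobp* to *Csf1r* likewise did not overlap, and averaged 0.0508 ± 0.0117 in the 3 WT mice against 0.109 ± 0.0217 in the 3 R409C/+ mice (mean ± SD).

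*Cd14* (ENSMUSG00000051439.8, chromosome 18, 36858120 to 36859851), whose product hands bacterial lipopolysaccharide to TLR4, was measured at 3.83, 3.39, and 5.88 CPM in WT and at 7.76, 7.8, and 6.87 CPM in R409C/+ mice. WT replicate 3 was the highest WT mouse and lay closest to the R409C/+ mice, the lowest of which was 1.17 times as high. *Cd14* had a log2 fold change of 0.77 (standard error 0.24). *Aif1* (ENSMUSG00000024397.15, chromosome 17, 35387384 to 35395053) encodes IBA1, an actin-binding protein of the macrophage cytoplasm and not a surface receptor. Its level was 0.666, 1.27, and 1.31 CPM in WT and 2.73, 2.25, and 2.0 CPM in R409C/+ mice. The exons of *Aif1* share 703 bases with *Gm17705* on the opposite strand, to which 0, 0, and 3 counts were assigned in the WT mice, against 24, 0, and 27 in the R409C/+ mice. Summed over all mice, *Aif1* itself had the fewest counts of the 10 genes, 44, 82, and 124 in WT and 151, 161, and 145 in R409C/+ mice. In WT replicate 3, *Cx3cr1* had fewer (105). *Aif1* had a log2 fold change of 1.1 (standard error 0.34).

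*Itgam* (ENSMUSG00000030786.19, chromosome 7, 127661808 to 127717753) encodes CD11b, the α chain of a β2 integrin and complement receptor of monocytes, macrophages, and neutrophils. Its level was 2.07, 2.52, and 2.94 CPM in WT and 4.6, 9.87, and 6.46 CPM in R409C/+ mice. It was the only one of the 10 genes whose coefficient of variation exceeded 30% in R409C/+ mice, 38.3% against 17.2% in WT mice. As deposited, *Itgam* had a log2 fold change of 1.48 (standard error 0.29). This value depends on how reads were assigned, since *Itgam* shares 3450 exonic bases with the overlapping gene *Gm49368* on the same strand. *Gm49368* was measured at 3.47, 1.71, and 1.48 CPM in WT and at 2.53, 0.0559, and 0.676 CPM in R409C/+ mice, lowest in the mouse in which *Itgam* was highest. With the counts of both genes added, an alternative chosen after the data were seen, the level was 5.54, 4.23, and 4.41 CPM in WT and 7.13, 9.93, and 7.13 CPM in R409C/+ mice. The genotypes still did not overlap, and the log2 fold change was 0.77 (standard error 0.22).

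**Figure D2:**
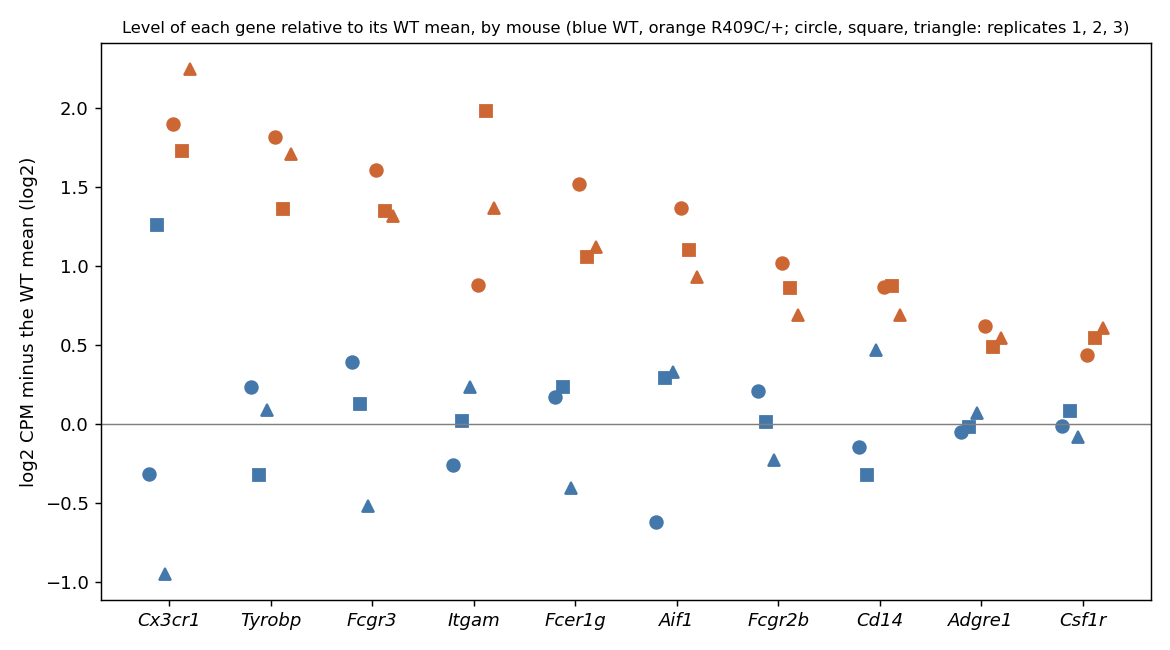
log2 CPM of each gene minus its WT mean (vertical axis, log2) in each WT mouse (blue) and R409C/+ mouse (orange), with circles, squares, and triangles for replicates 1, 2, and 3 and genes ordered by the mean over R409C/+ mice. *Adgre1* and *Csf1r* are the tightest and lowest, and *Cx3cr1* is the widest.

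Levels of different genes were compared per kilobase of summed exon length. In WT mice, *Csf1r* was the most abundant at 5.12 ± 0.294 CPM per kilobase (SD, n = 3) and did not overlap with the next gene. It was followed by *Adgre1* at 3.17 ± 0.142, *Fcer1g* at 3.14 ± 0.715, *Tyrobp* at 2.78 ± 0.54, *Cd14* at 2.52 ± 0.768, *Fcgr3* at 1.96 ± 0.594, and *Fcgr2b* at 1.55 ± 0.234 CPM per kilobase (SD, n = 3 for each), and each of these overlapped with its neighbours in that order. *Cx3cr1* at 0.579 ± 0.477 and *Itgam* at 0.49 ± 0.0842 CPM per kilobase (SD, n = 3) lay below the rest and overlapped with each other, and *Aif1* at 0.256 ± 0.0854 CPM per kilobase (SD, n = 3) had the lowest mean, though its highest WT mouse, at 0.309, was above the lowest of *Cx3cr1*, at 0.238. In R409C/+ mice, *Tyrobp* came first at 8.67 ± 1.4 CPM per kilobase (SD, n = 3), overlapping with *Csf1r* at 7.4 ± 0.456 CPM per kilobase (SD, n = 3). The value of *Aif1* is per 4236 bases of summed exons and that of *Tyrobp* per 682.

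Among all genes tested, shorter genes had higher fold changes. The median log2 fold change was 0.18 in the shortest of 5 length classes of about equal size, up to 2595 bases of summed exons, and -0.09 in the longest, from 9436 bases. *Tyrobp*, *Fcer1g*, and *Cd14* are in the shortest class and *Csf1r* in the one next to the longest, and all 10 genes were above the median of their class. With a correction for gene length, the log2 fold change was 1.43 for *Tyrobp*, 1.04 for *Fcer1g*, 0.64 for *Cd14*, 0.46 for *Adgre1*, and 0.54 for *Csf1r*.

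**Figure D3:**
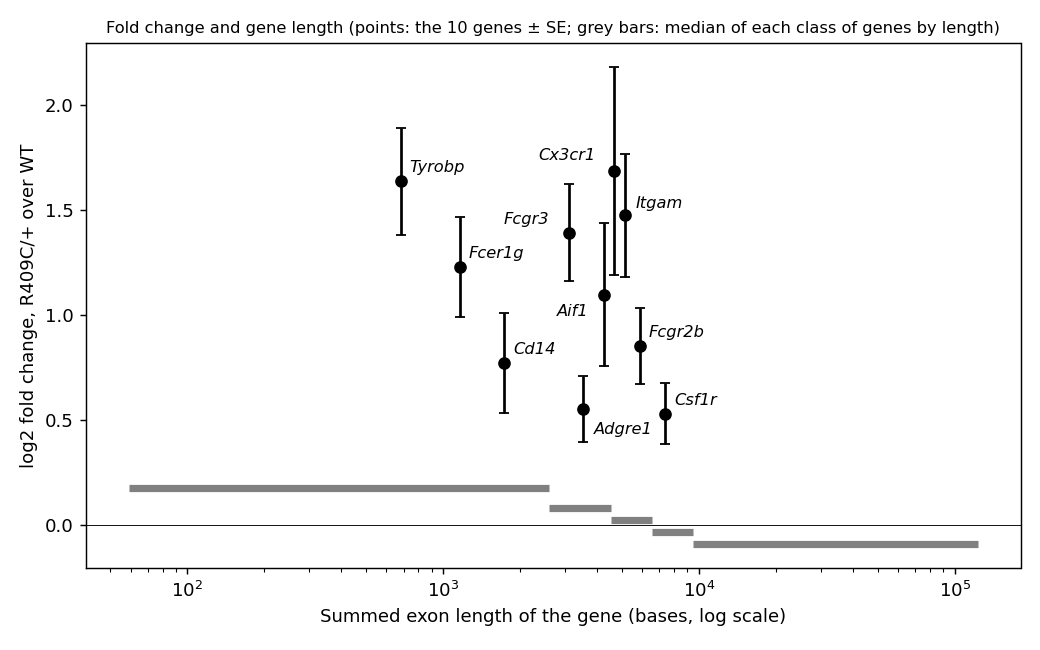
log2 fold change of R409C/+ over WT mice (vertical axis) against summed exon length (horizontal axis, bases on a log scale) for the 10 genes, as points with standard errors, and for 5 length classes of all genes tested, as grey bars at their medians. The grey bars step down from 0.18 to -0.09, and every point lies above them.

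The genes whose profile over the 6 mice lay nearest to that of *Tyrobp*, by the root mean square difference of log2 CPM centred on each gene's mean, were *Mdk* (0.131), *Pcbd1* (0.137), *Gm12381* (0.166), *Lrrc70* (0.169), and *Slfnlnc* (0.183). The median difference over all other genes tested was 0.892. In WT mice the 5 nearest genes were low, from 0.217 CPM for *Pcbd1* and *Lrrc70* to 0.923 CPM for *Gm12381*, where *Tyrobp* was at 1.49 to 2.21 CPM. Of the other 9 genes, *Fcgr3* was nearest at 0.349, rank 46 of 17211, then *Fcer1g* at 0.377, rank 73. *Cx3cr1* was farthest at 0.833, rank 5853. The measure covers 6 mice and includes the difference between the genotypes, so it describes these libraries and no shared control.

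The signaling partners were followed in 5 lists that together hold 136 genes outside the 10, of which 124 were tested. Of these 124, 109 were higher and 15 lower in R409C/+ mice, where 51.4% of all genes tested were higher. The lists were written with earlier results of these data known. None passed: edgeR's quasi-likelihood test, after Benjamini-Hochberg adjustment, called 0. Without adjustment, at a p under 0.05, it gave 55 higher genes, or 44.4%, and 0 lower genes, where all genes tested gave 5.77% higher and 2.86% lower. DESeq2's Wald test called 16 and edgeR's exact test 15 of them, all higher, where 1% and 0.72% of all genes with an adjusted p were called higher. The genotypes did not overlap for 58 higher genes, or 46.8%, and 1 lower gene, where all genes tested gave 8.3% and 7.23%. The median log2 fold change of the 124 was 0.65. Of the 124, 16, or 12.9%, had fewer than 3 WT mice at the level the filter asks for, 0.142 CPM, and so needed at least 1 R409C/+ mouse to be tested, as did 9.62% of all genes tested. Over the other 108, counted after the data were seen, the median was 0.55, the test gave 49 higher genes at an unadjusted p under 0.05 (45.4%) and called 0, DESeq2 called 16, the exact test 14, and the genotypes did not overlap for 50 higher genes (46.3%).

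Of 29 receptors that pair with *Tyrobp* or *Fcer1g*, 22 were tested, 21 of them higher, with a median log2 fold change of 1.28. Of these 22, 10, or 45.5%, needed at least 1 R409C/+ mouse to pass the filter, and over the other 12 the median was 1.05. *Cd300ld*, an activating receptor gene of the CD300 family, was measured at 2.94, 4.01, and 3.6 CPM in WT and at 8.3, 6.73, and 5.81 CPM in R409C/+ mice (log2 fold change 0.98, standard error 0.23, adjusted p = 0.215). *Fcgr1*, the high-affinity IgG receptor gene, was measured at 1.33, 1.07, and 0.591 CPM in WT and at 2.63, 2.59, and 2.69 CPM in R409C/+ mice (log2 fold change 1.41, standard error 0.34, adjusted p = 0.225). In neither gene did the genotypes overlap. *Oscar*, the one gene of the list with a log2 fold change below 0, turned above 0 in 4 alternatives and was at 0.345 ± 0.269 CPM (SD, n = 3) in WT and 0.337 ± 0.0749 CPM (SD, n = 3) in R409C/+ mice (adjusted p = 0.995). *Trem1*, *Trem3*, *Sirpb1c*, *Ncr1*, *Fcer1a*, *Clec4e*, and *Gp6* were too low to be tested.

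Of 32 kinases and adaptors downstream of the ITAM, 31 were found and tested, 26 higher and 5 lower, with a median log2 fold change of 0.34. *Syk*, the gene for the kinase that docks on the ITAM, overlapped between the genotypes. It was at 21.1 ± 2.47 CPM (SD, n = 3) in WT and 21.4 ± 2.76 CPM (SD, n = 3) in R409C/+ mice (log2 fold change 0.018, adjusted p = 0.984). *Rac2*, a small GTPase gene of blood cells, was measured at 1.83, 2.75, and 1.52 CPM in WT and at 5.13, 3.8, and 5.08 CPM in R409C/+ mice. *Rac2* had a log2 fold change of 1.2 (standard error 0.28) with an adjusted p of 0.215, and the genotypes did not overlap. *Pik3r1*, a regulatory subunit gene of PI3K that many cell types express, was lower, at 136 ± 33.3 CPM (SD, n = 3) in WT and 109 ± 37.9 CPM (SD, n = 3) in R409C/+ mice, with overlap (adjusted p = 0.773).

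Most genes of the opposing branch were higher as well, without passing edgeR's quasi-likelihood test. Of 26 inhibitory receptors with an ITIM and their phosphatases, 25 were tested, 23 higher and 2 lower, with a median log2 fold change of 0.78. *Lair1*, an inhibitory receptor gene for collagen, was measured at 1.51, 2.08, and 1.2 CPM in WT and at 5.22, 3.51, and 3.71 CPM in R409C/+ mice. *Siglec1*, whose product is a sialic acid receptor of macrophages without an ITIM of its own and was kept as listed, was measured at 3.12, 2.5, and 3.18 CPM in WT and at 4.44, 8.62, and 7.51 CPM in R409C/+ mice. Both had an adjusted p of 0.215 and no overlap between the genotypes. DESeq2's Wald test and edgeR's exact test called both genes. Their adjusted p was 0.0046 and 0.0112 for *Lair1* and 0.00554 and 0.0126 for *Siglec1*, in that order of tests. *Ptpn11*, the widely expressed phosphatase gene, was at 226 ± 36.1 CPM (SD, n = 3) in WT and 205 ± 8.76 CPM (SD, n = 3) in R409C/+ mice (adjusted p = 0.852).

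Of 29 ligands and partners of the other receptors, 28 were tested, 23 higher and 5 lower, with a median log2 fold change of 0.46. *Ccr1*, a chemokine receptor gene, was measured at 0.681, 1.34, and 0.697 CPM in WT and at 3.03, 4.25, and 3.17 CPM in R409C/+ mice, a log2 fold change of 1.95 (standard error 0.34) with an adjusted p of 0.0985. Over the alternatives, its adjusted p ranged from 4.3e-05 with DESeq2's Wald test to 0.435 without WT replicate 1. *Ccr2*, the chemokine receptor gene of blood-derived monocytes, was measured at 1.09, 1.85, and 2.1 CPM in WT and at 8.97, 3.52, and 4.07 CPM in R409C/+ mice (adjusted p = 0.215). *Ccr2* was above every WT mouse in all 3 R409C/+ mice and highest in replicate 1. *Ly96*, whose product binds lipopolysaccharide with TLR4, was at 1.9 ± 0.478 CPM (SD, n = 3) in WT and 1.53 ± 0.564 CPM (SD, n = 3) in R409C/+ mice (adjusted p = 0.845).

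Of 20 myeloid transcription factors, 18 were tested, 16 higher and 2 lower, with a median log2 fold change of 0.48. *Spi1*, the gene for PU.1, was measured at 1.69, 1.82, and 1.69 CPM in WT and at 3.84, 3.47, and 4.86 CPM in R409C/+ mice, a log2 fold change of 1.23 (standard error 0.26) with an adjusted p of 0.215. *Irf5* was measured at 1.88, 2.39, and 1.94 CPM in WT and at 5.22, 4.59, and 5.59 CPM in R409C/+ mice, a log2 fold change of 1.31 (standard error 0.24) with an adjusted p of 0.127. Both factor genes lay above every WT mouse in each R409C/+ mouse. *Bach1*, a factor of heme metabolism found in many cell types, was at 41.4 ± 3.78 CPM (SD, n = 3) in WT and 33.8 ± 8.2 CPM (SD, n = 3) in R409C/+ mice (adjusted p = 0.708).

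**Figure D4:**
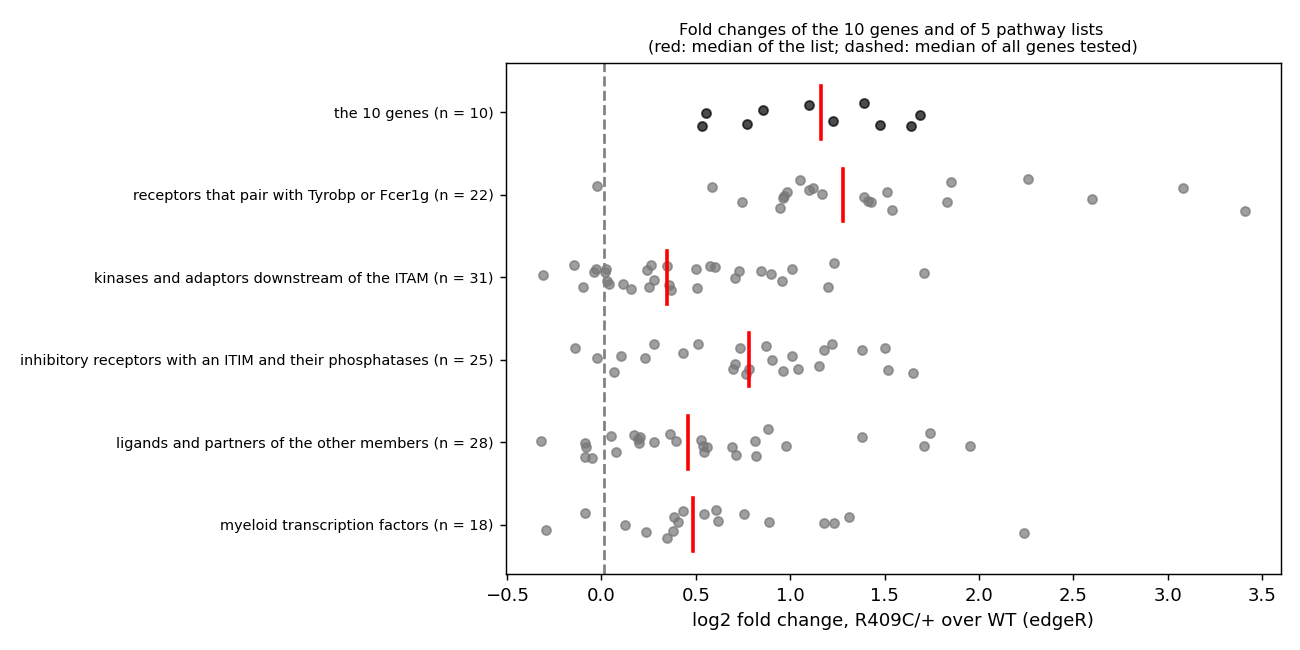
log2 fold change of R409C/+ over WT mice (horizontal axis) for each of the 10 genes (top) and each tested gene of the 5 lists, with a red bar at the median of each row and a dashed line at the median of all genes tested, 0.012. The median of the 10 genes is 1.16, and those of the 5 lists run from 0.34 for the kinases and adaptors to 1.28 for the receptors that pair with *Tyrobp* or *Fcer1g*, which is 1.05 over the 12 receptors that passed the filter in all 3 WT mice.

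Summed marker levels of several immune cell types did not overlap between the genotypes, as those of the 10 genes did not, and the sums were not tested. The summed CPM of the 10 macrophage markers was 1.7 times as high in R409C/+ as in WT mice, with no overlap. *Lyz2* made 48.4% of this sum, and 8 of the 10 markers did not overlap. Of all genes tested, 8.3% were above every WT mouse in each R409C/+ mouse. This share stands beside that count and the counts of markers below. That of 10 neutrophil markers lay between 0.781 and 1.57 CPM in WT and between 2.46 and 3.3 CPM in R409C/+ mice, with *Ly6g*, *Camp*, *Ngp*, and *Elane* at 0 counts in all 6 mice and 3 of the 10 high enough to be tested. Of these 3, 1 did not overlap, and *Mmp9*, which made 47.2% of the sum, overlapped. The lists of mast cell (1.98 times), T cell (1.91 times), natural killer cell (2.3 times), and B cell markers (1.97 times) also did not overlap, and *Ighm* made 77.8% of the B cell sum. The T cell and natural killer cell sums are low, from 1.09 and 0.333 CPM in the lowest WT mouse. Of their markers, 4 of 8 and 2 of 6 were high enough to be tested, and 1 in each list did not overlap (*Lck* and *Nkg7*). These markers and *S100a8*, the neutrophil marker without overlap, were below the filter level of 0.142 CPM in at least 1 WT mouse. They needed at least 1 R409C/+ mouse to be tested, so nothing is read from their lack of overlap. Of the tested mast cell and B cell markers, 4 of 5 and 5 of 6 did not overlap. Among them, *Tpsb2*, *Mrgprb1*, and *Cd79a* also needed at least 1 R409C/+ mouse to be tested. The dendritic cell sum overlapped, and 79.2% of it was *Zbtb46*. The other 4 tested markers of that list were above every WT mouse in each R409C/+ mouse. Of these 4, only *Clec9a* reached the filter level in every WT mouse, so nothing is read from the others. The erythroid list overlapped and lay between 578.8 and 1479 CPM in WT and between 1042 and 2625 CPM in R409C/+ mice. The cardiomyocyte, fibroblast, endothelial, and pericyte and smooth muscle lists overlapped, with ratios of means of 0.856, 1.05, 0.984, and 0.957. *Rgs5* made 78.4% of the pericyte and smooth muscle sum. Of the 6 markers in that list, 1 was below every WT mouse in each R409C/+ mouse and 0 were above. Of the 6 fibroblast markers, 2 were above every WT mouse in each R409C/+ mouse, as was 1 of the 6 endothelial markers. In these 2 lists, 0 were below. Of the 7 cardiomyocyte markers, 1 was below and 0 were above. Of all genes tested, 7.23% were below every WT mouse in each R409C/+ mouse. *Siglech* and *Ncr1*, in the dendritic and natural killer cell lists, are also among the receptors above. The part of these cells in the values of the 10 genes was not tested.

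**Figure D5:**
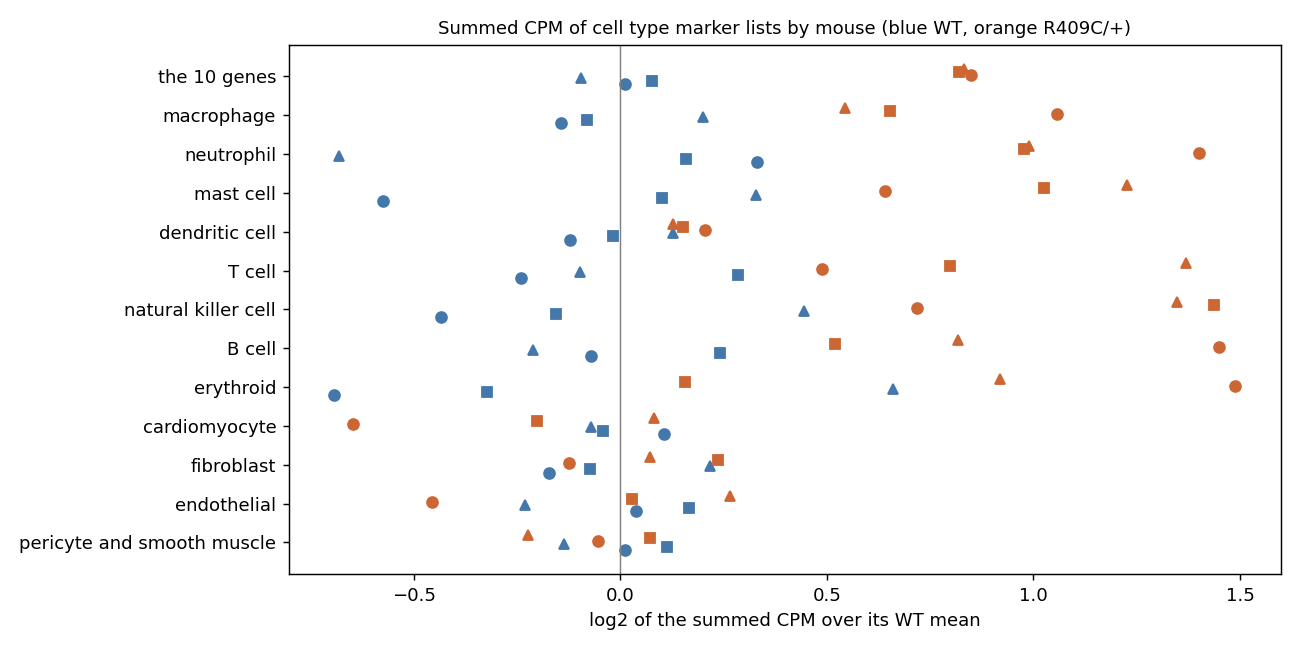
log2 of the summed CPM of each marker list over its WT mean (horizontal axis) by mouse, with WT mice in blue, R409C/+ mice in orange, and circles, squares, and triangles for replicates 1, 2, and 3. The 10 genes and the macrophage, neutrophil, mast cell, T cell, natural killer cell, and B cell lists separate the genotypes, and the lists of the other heart cells, the erythroid list, and the dendritic cell list, which is mostly *Zbtb46*, do not.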

How the data were processed

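The deposited values are raw whole-number counts. By the study's methods and the submitters' processing notes, the authors used Trim Galore, HISAT2 on GRCm39, and StringTie, and left out rRNA. Versions and the annotation release are not given in the sources used here. A second deposited table, the authors' own edgeR comparison (fold changes and p-values), was read for gene names only. Positions, exon lengths, and sequences came from GRCm39 and GENCODE M39, in which 56236 of 56923 gene identifiers were found.

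The 10 genes, the lists, and the tests were chosen with earlier results of these data known. Genes named outside the 10 are the 5 nearest to *Tyrobp*, *Lztr1*, and, per list, those called or, with none called, the 2 higher and the 1 lower with the smallest unadjusted p. Single markers are named where they are at 0 or make over 50% of a sum. One gene under this rule and some upstream sequences are not reported here. *Gm49368*, *Hmgxb3*, and *Gm17705* overlap 3 of the 10 genes and were added once their values were known. *Syk*, *Mmp9*, *Lyz2*, *Clec9a*, the untested receptors, and the genes that are in more than 1 list were also named outside that rule. So were markers that needed an R409C/+ mouse to be tested. The list of kinases and adaptors includes *Dap*, which encodes no ITAM adaptor, that of inhibitory receptors includes *Siglec1*, which has no ITIM, both kept as listed, and 1 symbol of the former was not found.

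The genotypes were compared with edgeR 4.0.16 under R 4.3.3 (filterByExpr, TMM, robust quasi-likelihood test, Benjamini-Hochberg adjustment over 17212 genes, false discovery rate 0.05, two-sided). log2 CPM used a prior count of 2. DESeq2 1.42.0 and other normalizations, filters, and thresholds, a gene length correction, a replicate block, and the omission of mice were alternatives. The test was checked on simulated counts. The labels give no batch and do not say whether the mice are littermates. Adjusted p-values in the text are from edgeR's quasi-likelihood test unless another test is named.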

Additional observations from a re-analysis of the deposited data

How the results depend on the processing

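All 10 genes stayed higher in R409C/+ mice in each of 17 alternatives. Their median log2 fold change, 1.16, moved by more than the spread between mice only with library size only, to 0.99, where the median of all genes moved to -0.14. The number of all genes called, 7, was 21 with library size only, 20 without a filter, 166 with DESeq2, 137 with the exact test, 16 at a false discovery rate of 0.1, 1486 at an unadjusted p under 0.05, and 1 without the mice of lowest and highest mitochondrial share, and it was 2 to 4 with each mouse left out. Among the 10 genes, the number called, 0, was 1 with library size only (*Cx3cr1*), 4 without a filter, 6 with DESeq2, 5 with the exact test, 2 at a false discovery rate of 0.1, and 10 at an unadjusted p under 0.05. Those called without a filter were *Tyrobp*, *Fcer1g*, *Fcgr3*, and *Itgam*. DESeq2 and the exact test called them and *Fcgr2b*, and DESeq2 also called *Cx3cr1*. The number called was 0 to 1 with each mouse left out, the 1 being *Cx3cr1* without WT replicate 2. Among the listed partners it was 1 with library size only and 1 without a filter, *Ccr1* in both, 16 with DESeq2, 15 with the exact test, 1 at a false discovery rate of 0.1, and 55 at an unadjusted p under 0.05. Of the partners named above, DESeq2 and the exact test both called *Cd300ld*, *Fcgr1*, *Rac2*, *Siglec1*, *Lair1*, *Ccr2*, *Ccr1*, *Spi1*, and *Irf5*. The log2 fold change of *Oscar* turned above 0 with the upper quartile (0.021), and it ranged from -0.47 to 0.76 with each mouse left out, above 0 without WT replicate 1 (0.76) and without R409C/+ replicate 2 (0.12), and that of *Lztr1* turned below 0 with library size only (-0.014).

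With the replicate number as a block, 1 gene was called in all, 0 of the 10 and 0 of the partners, and *Oscar* turned higher (0.24). The deviations of same-numbered mice correlated at -0.00133, 0.0215, and -0.0573, so the numbers were not taken to pair the mice. Whether same-numbered mice were handled together is not given. The largest shifts among the 10 genes were those of *Cx3cr1* without WT replicate 2, to 2.6, and of *Itgam* with *Gm49368* added, to 0.77. For *Adgre1*, counting alone gives a coefficient of variation of 3.45% in WT mice, close to the measured 4.5%, whereas for *Tyrobp* it gives 8.34% against 19.4%.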
